A study of Mus musculus with 24 samples.

Results

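The fatty acid desaturases and elongases of mouse brown adipose tissue (BAT) were followed across genotype and temperature. The set was fixed by symbol as the stearoyl-CoA desaturases Scd1 and Scd2, the desaturases Fads1, Fads2 and Fads3, and the elongases Elovl1, Elovl3, Elovl5, Elovl6 and Elovl7, which makes 10 genes. The count table of 12615 genes holds 9 of these 10, and all 9 were among the 12485 genes that passed the filter on low counts. Elovl7 has no row in that table and was not analysed here.

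Desaturases place double bonds into fatty acyl-CoAs, and elongases catalyse the condensation step by which fatty acyl-CoAs gain carbon atoms in the endoplasmic reticulum. SCD enzymes turn saturated fatty acids made by the cell or taken up from food into monounsaturated ones, FADS1 and FADS2 build polyunsaturated fatty acids from essential precursors of the diet, and each elongase prefers acyl chains of certain length and saturation. In BAT, cold is known to switch on fatty acid synthesis beside fatty acid burning, and Elovl3 and Elovl6 are among the genes that earlier work has tied to the cold-adapted tissue.

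RNA from the BAT of 24 mice was read by 3′ tag sequencing, in which a transcript yields a tag next to its 3′ end whatever its length, so that levels can be set side by side between genes. Each of 4 groups held 6 mice, and mice of all groups carried floxed alleles of TBLR1 (gene Tbl1xr1) and TBL1 (gene Tbl1x), 2 transcriptional cofactors, and were injected with tamoxifen. The groups labelled BATdKO also carried Ucp1CreERT2, a tamoxifen-inducible Cre recombinase, and the Cre- controls lacked it. Since the Ucp1 promoter drives Cre, recombination was limited to cells that use this promoter, whereas the RNA came from the whole tissue. Mice had been kept at 22°C and were moved directly to 30°C for 4 days, or to 8°C for 6 days by way of 1 day each at 18°C, 16°C and 12°C, starting 3 weeks after the last tamoxifen injection. The labels describe females and an age at injection of 5 years. The study's text describes cohorts of both sexes, with males in the legend for the sequencing, an age of weeks and a shorter stay at 8°C. Each library comes from its own mouse. Library numbers in the labels run in 1 series for the libraries at 30°C and in another for those at 8°C, so that temperature and library series cannot be told apart.

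The libraries held 699703 to 11527643 counts, with the lowest total in replicate 4 of Cre- at 30°C and the next lowest at 2738613. In the check of the labels, Tbl1xr1 was not reduced but higher under the BATdKO label at 8°C (39.8 ± 4.01 against 20.9 ± 2.24 CPM, tag counts scaled by normalised depth; SD, n = 6 each; edgeR log2 fold change 0.92, adjusted p = 0.00348), and groups are therefore named by their label throughout. Tbl1x, the other floxed gene, was not reduced either, with 53.8 ± 6.75 CPM under the BATdKO label and 40.7 ± 1.88 CPM in Cre- mice at 8°C (SD, n = 6 each; log2 0.39, edgeR adjusted p = 0.0633) and 53.4 ± 7.13 against 41.0 ± 7.75 CPM at 30°C (adjusted p = 0.205). The sources used here do not give which exons are floxed, so it is not known whether tags near the 3′ end would show the deletion. Why both genes were higher under the BATdKO label, and whether the genotype labels are right, was not tested. For Tbl1xr1 at 30°C, the log2 difference (BATdKO minus Cre-) was 0.44 and did not pass the test (edgeR adjusted p = 0.360). There, Tbl1xr1 in replicate 6 labelled Cre- (38.6 CPM) and in replicate 6 labelled BATdKO (17.0 CPM) lay on the side of the other genotype. These 2 libraries also had the highest (4502 CPM) and the lowest (1306 CPM) summed level of the brown adipocyte markers in their groups. The labelled tissue was checked with marker lists of other cell types. Counts of Alb, the albumin gene of hepatocytes, exceeded those of Ucp1, the defining gene of brown adipocytes, in 24 of 24 libraries, by 5.13 to 302.2 times. The 10 hepatocyte genes took 3.22% to 5.04% of all counts per library, and 22 genes of the Mup family, which encode major urinary proteins of the liver, took 10.9% to 16.5%. Both groups of genes are known above all for their expression in liver, and how much of each desaturase or elongase count came from the same source was not tested. In bulk RNA, fewer cells of a type and less RNA per cell cannot be told apart.

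**Figure D1:**
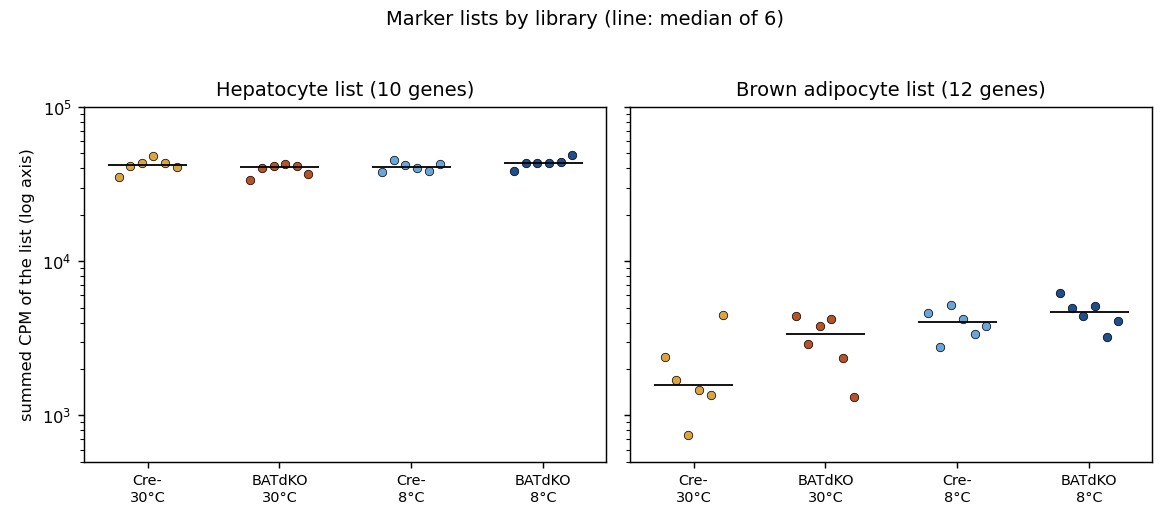
Summed CPM of the hepatocyte list (10 genes) and of the brown adipocyte list (12 genes, Elovl3 among them) in each of the 24 libraries, on a log axis, with a line at the median of each group of 6. The hepatocyte sum lies above the brown adipocyte sum in every library, and the brown adipocyte sum spans 744 to 6215 CPM.

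Most of these genes lie in a few clusters on chromosome 19 of GRCm38. Fads3 (chr19:10041569-10060110), Fads2 (chr19:10062765-10101746) and Fads1 (chr19:10182888-10196877) are neighbours, with 2.7 kb between Fads3 and Fads2 and 81.1 kb between Fads2 and Fads1. Scd2 (chr19:44293674-44306864) and Scd1 (chr19:44394455-44407879) are 87.6 kb apart, with Scd4 between them, and Elovl3 (chr19:46131897-46135694) follows 1724.0 kb beyond Scd1. The other elongase genes are Elovl1 (chr4:118428093-118432953), Elovl5 (chr9:77917364-77984519) and Elovl6 (chr3:129532355-129638495). Since tags fall near transcript ends, words of 50 bases within the last 500 bases of each gene's annotated transcripts were searched in all other genes. None of these words was shared for Scd1, Scd2, Fads1, Fads2, Elovl1, Elovl3 and Elovl5, whereas Fads3 shared 0.46% with Fads2, and Elovl6 shared 8.73% with Gm11295, so that tags of Elovl6 could be split with that gene. Exons of Elovl1, Elovl3 and Elovl6 overlap Cdc20, Pitx3 and Gm35986 on the other strand, and the sources used here do not give whether tags were counted by strand. Scd2 overlaps the microRNA gene Mir5114 on its own strand.

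Promoter sequence of the GRCm38.p6 assembly was matched from RefSeq for 6 of the 10 genes. The stretches just before the gene start are shown for Elovl6 and Fads3, which moved with cold, and for Elovl5, which did not pass the test, all read 5′ to 3′ on the plus strand. Capitals mark the CCAAT box bound by NF-Y, written ATTGG where it lies on the other strand, and the E-box CACGTG, which SREBP and ChREBP can bind.
Elovl6 promoter, chr3:129532136-129532354: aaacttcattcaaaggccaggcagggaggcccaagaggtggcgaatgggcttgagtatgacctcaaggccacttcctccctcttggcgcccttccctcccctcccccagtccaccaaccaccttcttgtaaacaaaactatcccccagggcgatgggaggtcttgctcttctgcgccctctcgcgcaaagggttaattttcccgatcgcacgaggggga
Fads3 promoter, chr19:10041298-10041547: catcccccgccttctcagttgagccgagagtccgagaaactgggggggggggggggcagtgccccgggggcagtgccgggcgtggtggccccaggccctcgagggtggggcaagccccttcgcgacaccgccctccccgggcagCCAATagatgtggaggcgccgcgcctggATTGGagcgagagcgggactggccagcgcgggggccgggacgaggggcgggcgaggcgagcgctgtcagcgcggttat
Elovl5 promoter, chr9:77917115-77917363: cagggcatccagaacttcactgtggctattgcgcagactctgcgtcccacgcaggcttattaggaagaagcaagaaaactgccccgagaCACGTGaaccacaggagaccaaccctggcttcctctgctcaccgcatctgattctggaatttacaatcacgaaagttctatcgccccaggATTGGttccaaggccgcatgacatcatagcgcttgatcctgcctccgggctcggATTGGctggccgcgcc

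The E-box of Elovl5 lies 161 to 156 bases before the RefSeq start, and its 2 CCAAT boxes lie within the last 71. In Fads3 the 2 CCAAT boxes begin 106 and 78 bases before the start. Both strands of the 250 bases before each start were searched for these motifs and for the GC box GGGCGG, the sterol response elements TCACCCCAC and TCACGCCAC, the spaced direct repeats bound by PPAR with RXR and by LXR with RXR, the cAMP response element TGACGTCA and the TATA box TATAAA. No letters of this list were found in the Elovl6 window, and Fads3 also held GC boxes. Of all 32851 promoters, 33.8% held a CCAAT box, 6.02% the E-box, 32.7% a GC box, 12.4% the TATA box and 1.55% the cAMP response element, and fewer than any of these held the sterol elements (0.496% and 0.103%) and the repeats (0.0335% and 0.0152%). Motifs are matches of letters only.

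By level, Scd1 stood far above the other members. Its tags made up 81.8% to 93.2% of the member tags in a library and 0.58% to 1.45% of all counts, and it ranked between 10 and 29 among all tested genes in each library. In mean CPM over all 24 libraries, Scd1 (8750) was followed by Elovl5 (297.0), Elovl6 (259.5), Fads1 (181), Fads2 (180.3), Elovl3 (148), Scd2 (45.8), Elovl1 (22.0) and Fads3 (5.39). This order pools groups that differ for some members. Elovl6 followed Fads1 and Fads2 at 30°C (139 against 192 and 181 CPM in Cre- mice) but stood above Elovl5 at 8°C (364 against 303 CPM in Cre- and 383 against 325 CPM in BATdKO mice). Within Cre- mice at 30°C the ranges of neighbours in level did not overlap between Scd1 and Elovl5, Elovl5 and Fads1, Elovl3 and Scd2, and Elovl1 and Fads3, and they overlapped between Fads1, Fads2, Elovl6 and Elovl3, each with the next, and between Scd2 and Elovl1. The members also differed in how far they ranged: the highest library was 17.3 times the lowest for Scd2, 5.77 times for Elovl6 and 5.00 times for Fads3, but only 1.42 times for Fads2 and 1.57 times for Fads1.

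**Figure D2:**
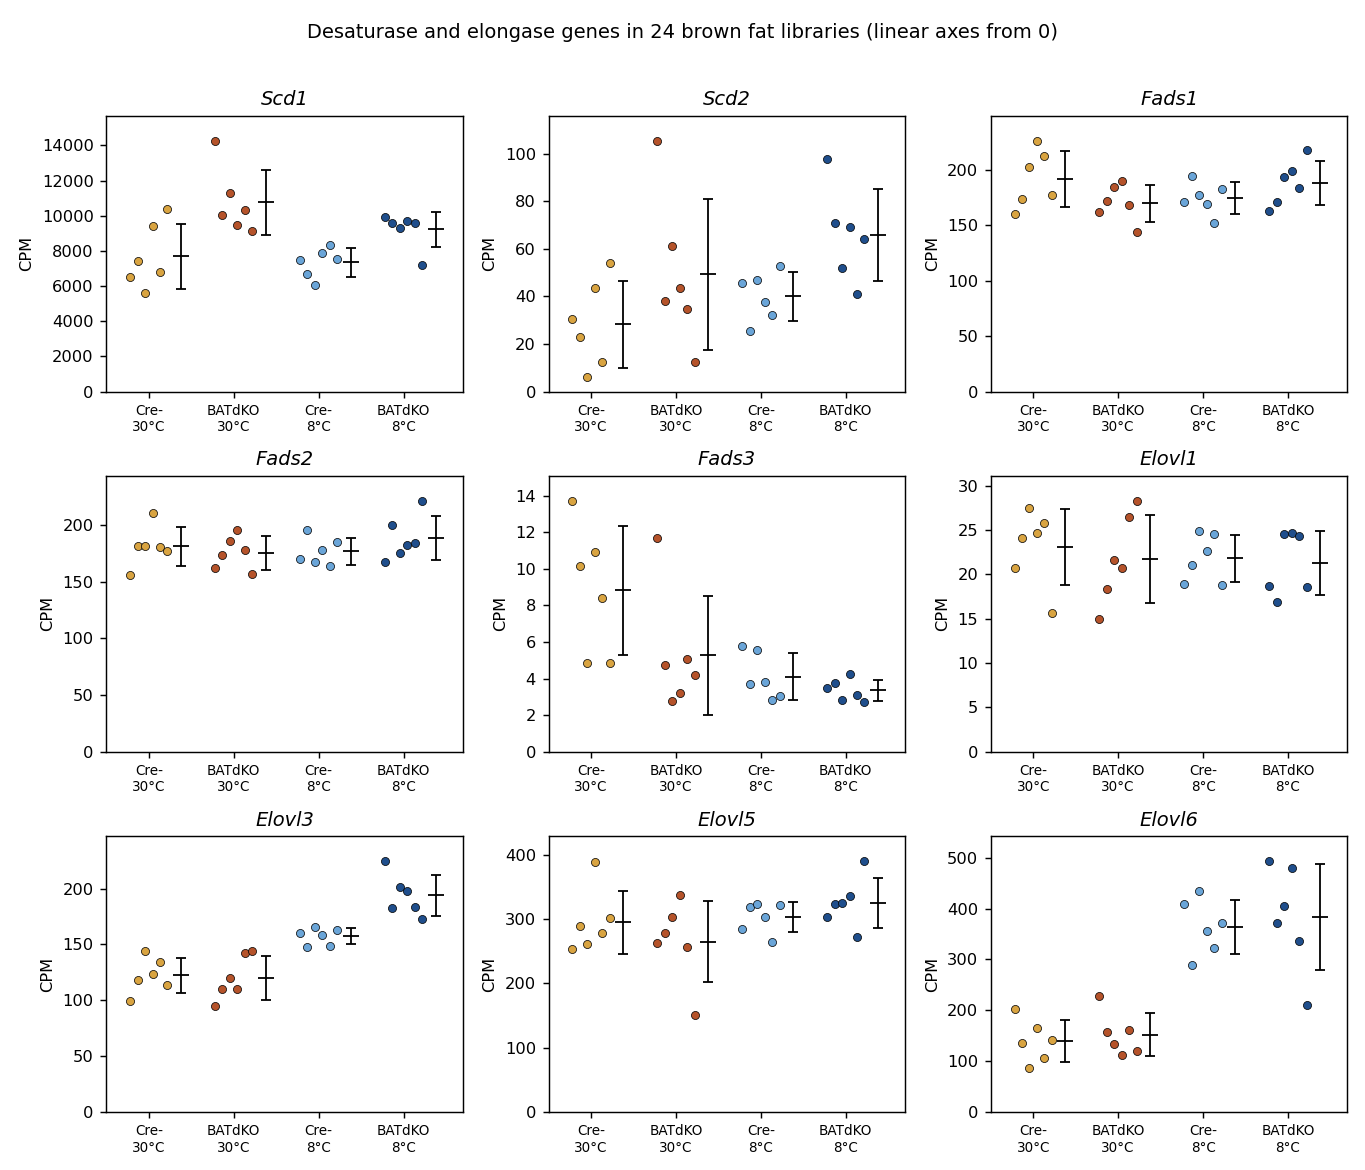
CPM (tag counts scaled by TMM-normalised depth) of the 9 desaturase and elongase genes in the table, 1 panel per gene, 1 point per library and a bar for mean ± SD of the 6 libraries in each group. Elovl6 rises from between 85.4 and 228 CPM at 30°C to between 209.7 and 493 CPM at 8°C, whereas Fads2 stays between 155 and 221 CPM throughout.

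Elovl6 and Elovl3 rose in the cold under both genotype labels, and Fads3 fell in the cold in Cre- mice. In Cre- mice, 3 of the 9 genes passed an adjusted p of 0.1 (edgeR quasi-likelihood test), 2 higher and 1 lower, where 9.15% of all tested genes passed (5.57% higher and 3.59% lower). In BATdKO mice the number was 2 of 9, both higher, against 7.07% of all tested genes (3.76% higher). The libraries at 8°C and at 30°C are different in each of these contrasts, but both share their groups with the genotype comparisons. Between genotypes, none of the 9 genes passed at 8°C, where 1.82% of all genes did, and none passed at 30°C, where the percentage of all genes was 0. The number of all genes called at 30°C was not stable: it ran from 0 to 369 when single libraries were left out, with the highest number without replicate 6 labelled Cre- at 30°C (67, 47 and 41 without Cre- replicate 2 and BATdKO replicates 4 and 6 at 30°C). At an unadjusted p under 0.05, edgeR gave 2 of the 9 at 8°C (Scd1 and Elovl3, both higher under the BATdKO label), against 9.24% of all genes (3.76% higher). At 30°C it gave 3 of the 9 (Scd1 and Scd2 higher and Fads3 lower), against 10.4% of all genes (5.29% higher and 5.14% lower). DESeq2 called 0 of the 9 between genotypes at 8°C and 1 at 30°C, which was Scd1.

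**Figure D3:**
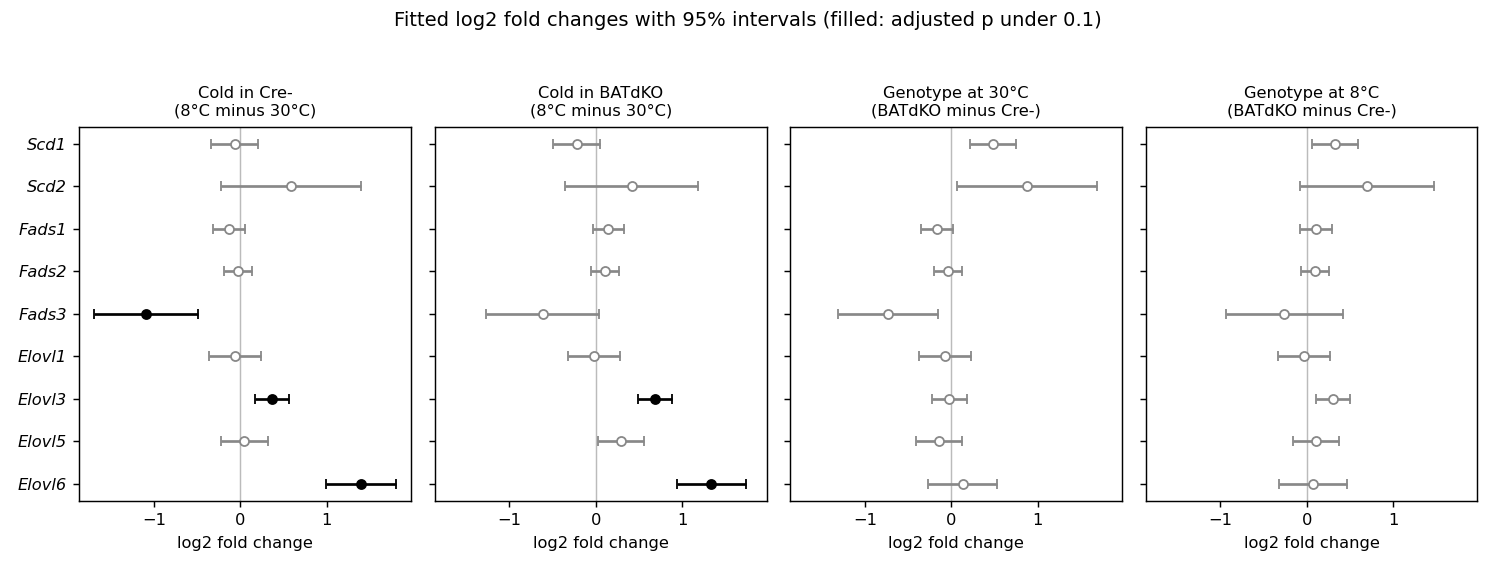
Fitted log2 fold changes of the 9 genes in 4 comparisons, with 95% intervals (edgeR). Filled points passed an adjusted p of 0.1: Elovl6, Elovl3 and Fads3 with cold in Cre- mice and Elovl6 and Elovl3 with cold in BATdKO mice, and none in the genotype comparisons.

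The difference between the cold responses of the genotypes was itself tested as an interaction, in which no member passed at the adjusted level (0.0961% of all tested genes did). In edgeR's test, 2 of the 9 had an unadjusted p under 0.05 there, against 8.05% of all genes (3.44% higher), and DESeq2 called 0 at the adjusted threshold. These were Elovl3, with 0.32 more log2 change in BATdKO mice (standard error 0.14, edgeR adjusted p = 0.542), and Fads1, with 0.27 more (standard error 0.13, adjusted p = 0.583). The data did not resolve whether the cold response of any of these genes differed between genotype labels.

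Elovl6, which elongates palmitate to stearate, showed the largest change of the set. In Cre- mice it had 85.4 CPM in the lowest, 138.5 in the median and 202 in the highest library at 30°C, and 290.0, 364 and 434 CPM at 8°C. Every library at 8°C lay above every library at 30°C. This was a rise of 1.39 on the log2 scale (standard error 0.20, edgeR adjusted p = 2.87e-05), or 2.63-fold with a 95% interval of 1.98 to 3.48. The exact permutation test over all assignments of 6 mice against 6 gave a two-sided p of 0.00216, the smallest it can give.

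In BATdKO mice, Elovl6 had 112, 145 and 228 CPM (lowest, median and highest) at 30°C and 209.7, 389 and 493 CPM at 8°C. The groups overlapped by a single pair of libraries, replicate 6 at 8°C and replicate 1 at 30°C. The rise was 2.52-fold (95% interval 1.91 to 3.33; log2 fold change 1.34, standard error 0.20, edgeR adjusted p = 7.98e-05). At the same temperature the genotype labels did not differ beyond the error, with log2 differences (BATdKO minus Cre-) of 0.13 at 30°C (95% interval -0.27 to 0.53) and 0.07 at 8°C (-0.32 to 0.46). The summed level of the 12 brown adipocyte markers moved in the same direction, from 744 to 4502 CPM in Cre- mice at 30°C to 2776 to 5160 CPM at 8°C. Of these 12 genes, 5 passed the test as higher, Elovl3 among them, and 1 as lower in the cold in Cre- mice, and their part in the rise of Elovl6 was not tested.

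Elovl3, which lengthens saturated and monounsaturated acyl chains and is counted among the brown adipocyte markers, rose less. In Cre- mice it had 99.2 CPM in the lowest, 120.5 in the median and 144 in the highest library at 30°C, and 148, 159 and 165 CPM at 8°C. In BATdKO mice the corresponding values were 94.5, 115 and 144 CPM at 30°C and 173, 191 and 224 CPM at 8°C. Under each label all 6 cold libraries lay above all 6 warm ones.

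The rise of Elovl3 was 1.29-fold in Cre- mice (95% interval 1.12 to 1.48, edgeR adjusted p = 0.0196) and 1.61-fold in BATdKO mice (1.41 to 1.85, adjusted p = 4.29e-05). At 30°C the log2 difference between genotype labels was -0.02 (95% interval -0.22 to 0.18). At 8°C all 6 libraries labelled BATdKO lay above all 6 labelled Cre-, with 194 ± 18.3 against 157 ± 7.23 CPM (SD, n = 6 each; two-sided exact permutation p = 0.00216, again the smallest possible). That difference was 0.30 on the log2 scale (standard error 0.095) and did not pass edgeR's test over all genes (adjusted p = 0.156). It did pass, with an adjusted p of 0.0147, when only the libraries at 8°C entered the model. Short marker lists of other cell types also separated these groups: the summed level of 4 Schwann cell genes was 48.4 to 78.3 CPM in Cre- and 22.8 to 32.0 CPM in BATdKO libraries at 8°C, and that of 2 B cell genes was 19.0 to 23.5 and 28.8 to 44.6 CPM. Only these 4 of 10 and 2 of 8 listed genes were counted, and they did not move alike. Their log2 differences between labels ran from -1.77 to 0.14 and from 0.16 to 1.46. Sums of 15 skeletal muscle genes overlapped (20.5 to 1669 CPM in Cre- and 10.6 to 170 CPM in BATdKO libraries). All 15 were lower under the BATdKO label (median log2 difference -3.05), and 0 passed the adjusted threshold in edgeR's test. At an unadjusted p under 0.05 edgeR gave 13 of the 15, against 9.24% of all genes, and DESeq2 called 1 (Myh7) at the adjusted threshold. At that threshold edgeR called 2 of the 4 Schwann cell genes lower (1.12% of all genes) and 1 of the 2 B cell genes higher (0.697%). The part of any of these lists in the level of Elovl3 was not tested.

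Elovl1, which makes the very long saturated chains used in sphingolipids, did not pass the test in any comparison. It ranged from 15.0 to 28.2 CPM over the 24 libraries, with group means between 21.3 and 23.1 CPM. The 95% intervals of its log2 differences in the 4 group comparisons all lay between -0.37 and 0.28.

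Scd1 is the main stearoyl-CoA desaturase of adipose tissue and liver and makes oleate and palmitoleate. At 30°C it had 5598 CPM in the lowest, 7111 in the median and 10356 in the highest library labelled Cre-, and 9144, 10179.9 and 14242 CPM under the BATdKO label. At 8°C the values were 6065, 7524 and 8361 CPM for Cre- and 7175, 9589 and 9927 CPM for BATdKO. The groups overlapped at both temperatures, at 30°C through replicates 4 and 6 labelled Cre- and at 8°C through replicate 6 labelled BATdKO.

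The means of Scd1 were higher in BATdKO than in Cre- mice, at 30°C by 1.40-fold (95% interval 1.16 to 1.69, edgeR adjusted p = 0.153) and at 8°C by 1.26-fold (1.04 to 1.51, adjusted p = 0.342). Neither passed the adjusted threshold in edgeR's fit of all libraries. The exact permutation tests gave two-sided p = 0.0216 at 30°C and p = 0.0108 at 8°C. The calls depended on the tool, the libraries and the model: DESeq2 on all libraries called Scd1 at 30°C (adjusted p = 0.0683), and edgeR called it at 8°C when only the libraries at 8°C entered (adjusted p = 0.0677). At 30°C, without replicate 6 labelled Cre-, the library that lay with the other genotype for Tbl1xr1, Scd1 passed with an adjusted p of 0.0158 and a log2 difference of 0.60. With both libraries numbered 6 at 30°C left out, a choice made after seeing the data, the difference was 0.63 (adjusted p = 0.00672). For Scd1, these were the highest Cre- library (10356 CPM) and the lowest BATdKO library (9144 CPM) at 30°C. Leaving out either or both therefore had to raise the difference. With cold, Scd1 did not pass the test under either label, with log2 changes of -0.07 in Cre- mice (95% interval -0.33 to 0.20) and -0.22 in BATdKO mice (-0.49 to 0.05).

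Scd2, a desaturase of the same reaction that other tissues such as brain use most, was scarce and variable. At 30°C it had 6.08, 26.6 and 53.8 CPM (lowest, median and highest) in Cre- libraries and 12.3, 40.9 and 105 CPM in BATdKO libraries. At 8°C it had 25.3, 41.7 and 52.6 CPM in Cre- and 41.1, 66.7 and 97.6 CPM in BATdKO libraries. At 30°C the highest Cre- library was replicate 6 and the lowest BATdKO library was replicate 6.

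The log2 difference of Scd2 between labels was 0.87 at 30°C (standard error 0.39, edgeR adjusted p = 0.426) and 0.70 at 8°C (standard error 0.38, adjusted p = 0.619). Leaving out both libraries numbered 6 at 30°C raised the former to 1.49 (adjusted p = 0.0168), and fitting only the libraries at 8°C gave 0.69 for the latter (adjusted p = 0.0283). The exact permutation test on all libraries gave a two-sided p of 0.199 at 30°C and of 0.0152 at 8°C. Summed with Scd1, so that no split of tags between both genes could matter, the pair had log2 differences of 0.49 at 30°C (adjusted p = 0.154) and 0.33 at 8°C (adjusted p = 0.337), which were those of Scd1. Since Scd1 far exceeds Scd2 (8750 against 45.8 CPM over all libraries), this was fixed in advance, and the sum tells nothing about Scd2. With cold, the log2 change of Scd2 was 0.59 in Cre- mice (95% interval -0.22 to 1.39, edgeR adjusted p = 0.459) and 0.41 in BATdKO mice (-0.36 to 1.18, adjusted p = 0.633). Without both libraries numbered 6 at 30°C the former was 1.00 and passed (adjusted p = 0.0611). For Scd2, this pair held the highest Cre- and the lowest BATdKO library at 30°C. Leaving the pair out, a choice made after seeing the data, therefore had to raise this change and the genotype difference at 30°C.

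Fads1 and Fads2, which act in turn on the way from linoleic to arachidonic acid, varied least. Fads1 ranged from 143 to 226 CPM and Fads2 from 155 to 221 CPM over all libraries, and neither passed the adjusted threshold in any comparison. For Fads2 the 95% intervals of the log2 difference in the 4 group comparisons all lay between -0.20 and 0.26. Group means of Fads1 lay between 169.7 and 191.8 CPM, with the highest in Cre- and the lowest in BATdKO mice at 30°C (log2 difference -0.17, 95% interval -0.35 to 0.02).

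Fads3, whose product acts on sphingoid bases of ceramides, was the least abundant member and the single one that fell. In Cre- mice it had 4.84 CPM in the lowest, 9.28 in the median and 13.7 in the highest library at 30°C, and 2.81, 3.73 and 5.78 CPM at 8°C. These values rest on 8 to 174 counts per library at 30°C and 19 to 36 at 8°C, and the groups overlapped. The level at 8°C was 0.470 of that at 30°C (95% interval 0.311 to 0.712; log2 fold change -1.09, standard error 0.29, edgeR adjusted p = 0.0217), and the exact permutation test gave a two-sided p of 0.013.

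In BATdKO mice Fads3 had 2.78, 4.46 and 11.7 CPM at 30°C and 2.74, 3.28 and 4.22 CPM at 8°C. A single library, replicate 1 at 30°C, stood above all the others. The log2 change with cold was -0.61 (95% interval -1.27 to 0.04, edgeR adjusted p = 0.326). At 30°C the log2 difference of Fads3 between genotypes (BATdKO minus Cre-) was -0.73 (standard error 0.28, edgeR adjusted p = 0.352). In the Cre- libraries at 30°C where Fads3 was highest, replicate 1 had 3905 CPM of skeletal muscle markers and 323 CPM of progenitor markers, the highest progenitor sum of all libraries, whereas the next, replicate 4, had 10.9 and 182 CPM. Replicate 4 is the library with the lowest total, and its Fads3 level (10.9 CPM) rests on 8 counts. Replicate 2 had a similar Fads3 level (10.1 CPM) from 97 counts. Replicate 3 of that group, with the highest skeletal muscle sum of all libraries (8962.5 CPM) and 219 CPM of progenitor markers, had only 4.87 CPM of Fads3. The part of such cells in the level of Fads3 was not tested.

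Elovl5, the elongase of polyunsaturated fatty acids that works between the FADS2 and FADS1 steps, did not pass the adjusted threshold in any comparison. It ranged from 253 to 388 CPM in Cre- mice at 30°C and from 265 to 324 CPM at 8°C. In BATdKO mice it ranged from 151 to 337 CPM at 30°C and from 272 to 390 CPM at 8°C. The log2 change with cold was 0.05 in Cre- mice (95% interval -0.22 to 0.31) and 0.29 in BATdKO mice (0.03 to 0.56, edgeR adjusted p = 0.230). The latter passed, with an adjusted p of 0.0947, when replicate 4 of BATdKO at 30°C was left out.

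The profiles of the members were set beside those of the hepatocyte and brown adipocyte lists. For each gene, log2 CPM over the 24 libraries was centred on its mean and compared with the centred sum of a marker list by the mean absolute difference, where smaller values mean more alike. The hepatocyte list varied little, with a mean deviation of 0.0942 against 0.620 for the brown adipocyte list, so any flat gene lies near it, and a difference says something only beside the gene's own mean deviation. Fads2 differed from the hepatocyte list by 0.0443 where its own deviation was 0.0919. For Fads1 these values were 0.0706 and 0.128, and for Elovl5 0.138 and 0.177. Elovl2, another elongase of polyunsaturated fatty acids with high levels in liver and no member of the set, differed from the hepatocyte list by 0.0952 with a deviation of 0.142.

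Scd2 and Elovl6 differed from the brown adipocyte list by 0.336 and 0.447, less than their own deviations of 0.674 and 0.696. For Scd1, Elovl1, Elovl3 and Fads3 the difference from the hepatocyte list (0.282, 0.205, 0.261 and 0.557) was close to or above their own deviation (0.263, 0.213, 0.268 and 0.527). Their difference from the brown adipocyte list was larger still (0.578, 0.750, 0.553 and 1.04). For Scd1, Elovl1 and Elovl3 a difference above their own deviation was fixed in advance, since they deviate far less than that list (0.620). It does not show whether they followed the brown adipocyte list. By this measure the profile of Fads3 was like neither list. The libraries share depth and normalisation, and these are descriptions with no test. The hepatocyte list itself had 0 of 10 genes past the adjusted threshold in each of the 5 contrasts in edgeR's test, with 3 of 10 at an unadjusted p under 0.05 for cold in BATdKO mice and 0 of 10 in the other contrasts, and DESeq2 called 0 of 10 in all 5. Its genes still moved together in sign. All 10 were positive in the interaction (log2 0.051 to 0.286, median 0.21) and between genotypes at 8°C (median 0.089). With cold, 8 of 10 were positive in BATdKO mice (median 0.14) and 9 of 10 negative in Cre- mice (median -0.057). Between genotypes at 30°C, 7 of 10 were negative (median -0.12). The part of this shared direction in the member values was not tested.

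**Figure D4:**
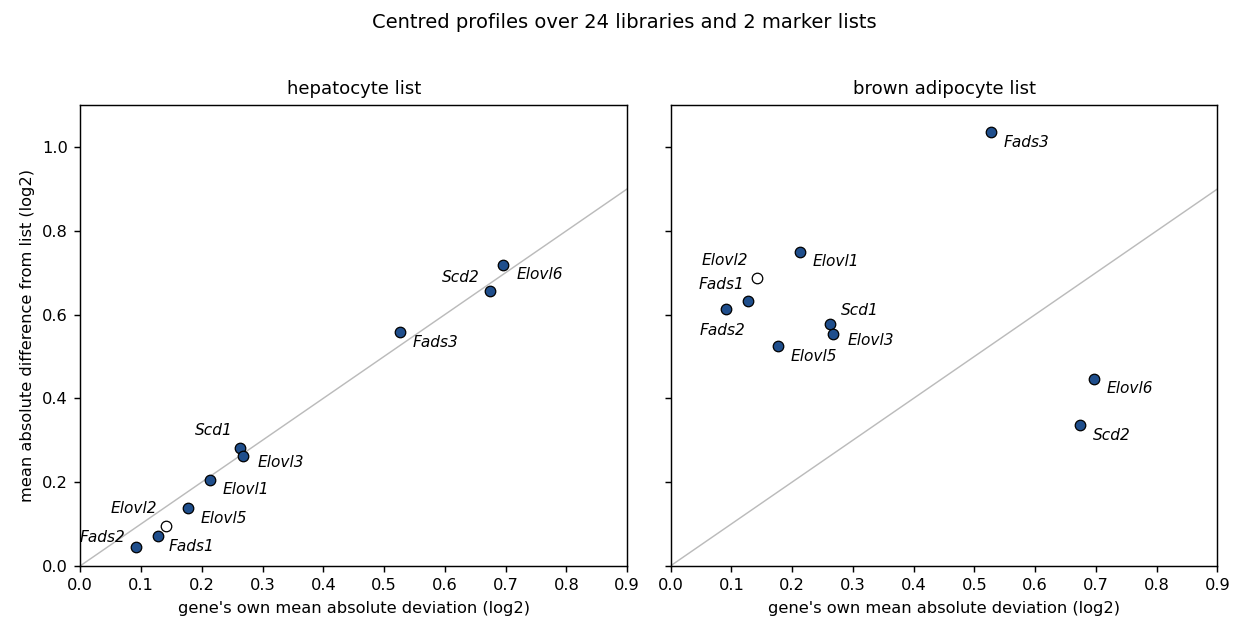
Mean absolute difference, in log2 units over 24 libraries, between each gene's centred profile and the centred sum of the hepatocyte list (left) or the brown adipocyte list (right), against the gene's own mean deviation, for the 9 members (filled) and Elovl2 (open). Below the grey line of equal values a gene is nearer to the list than to a flat profile: Fads2 (0.0443 against 0.0919) and Fads1 lie clearly below it on the left, and Scd2 and Elovl6 are the only members below it on the right. Genes that deviate far less than the brown adipocyte list (0.620) lie above the line on the right whatever their shape. Of the members, only Scd2, Elovl6 and Fads3 could lie below it there.

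By the same measure, the tested genes outside the set with the profiles most like Elovl6 were Eno1 (0.223) and Eno1b (0.229), 2 near-identical enolase genes of glycolysis between which tags may be split. The median over all tested genes was 0.733. For Elovl3 they were Lipa, the lysosomal acid lipase (0.130), and Wdr73 (0.145), where the median was 0.364. For Fads3 they were Fam102b (0.318) and Gm17249 (0.341), where the median was 0.581.

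Of 9 genes of malonyl-CoA, citrate and NADPH supply and fatty acid synthesis, 7 rose with cold in Cre- mice and 4 in BATdKO mice, and 3 were lower under the BATdKO label at 8°C. Of all tested genes, 5.57%, 3.76% and 1.12% passed in these directions, and 0.697% were higher under the BATdKO label at 8°C. The median log2 change of these 9 was 0.84 with cold in Cre- mice, where that of all tested genes was -0.02, and -0.32 between genotypes at 8°C. Malic enzyme Me1, a source of NADPH, rose from 231 ± 30.3 to 469 ± 45.2 CPM in Cre- mice (SD, n = 6 each; edgeR adjusted p = 1.26e-06). The citrate carrier Slc25a1 rose from 107.9 ± 10.3 to 193 ± 29.9 CPM there (adjusted p = 5.19e-06) and was 117 ± 15.4 CPM in BATdKO mice at 8°C, below all 6 Cre- libraries (adjusted p = 0.000173). Acetyl-CoA carboxylase Acaca, which makes the malonyl-CoA used by all elongases, had 537 ± 78.3 CPM in Cre- and 286 ± 74.4 CPM in BATdKO mice at 8°C, again without overlap (adjusted p = 0.0153). Elovl6 also rose with cold, and its genotype difference at 8°C did not pass the test, with an interval from -0.32 to 0.46. The differences of the 9 genes there ran from -0.91 to 0.15, some within that interval and some below it. Whether Elovl6 differed from these genes was not tested.

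The later steps of the elongation cycle were less uniform. Of 6 genes, 2 rose with cold under both labels, Hsd17b12, the ketoacyl-CoA reductase (log2 fold change 0.73 in Cre- and 0.40 in BATdKO mice), and Hacd2, a hydroxyacyl-CoA dehydratase (1.90 and 1.42). Hsd17b12 was also the single one of the 6 that passed between genotypes at 8°C, lower under the BATdKO label (log2 difference -0.31, edgeR adjusted p = 0.0706). Of 5 genes that supply electrons to desaturases, Cyb5b, a cytochrome b5, was the single one called, higher under the BATdKO label at 8°C (219 ± 17.9 against 181 ± 7.07 CPM; SD, n = 6 each; adjusted p = 0.0417) and with cold in BATdKO mice.

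Of 7 genes that activate fatty acids to acyl-CoAs, 3 rose with cold in Cre- mice and 1 in BATdKO mice, and 2 were lower under the BATdKO label at 8°C. Acsl5, an acyl-CoA synthetase, took part in all of these (log2 0.90, 0.60 and -0.49), and the fatty acid transporter Slc27a1 was the other gene that was lower between genotypes (-1.03, edgeR adjusted p = 0.0251). Acsl1, another acyl-CoA synthetase, had the opposite sign, with 960 ± 107 CPM under the BATdKO label and 711 ± 76.8 CPM in Cre- mice at 8°C (SD, n = 6 each) and no overlap. That difference did not pass edgeR's test (adjusted p = 0.144), nor did the one at 30°C (log2 0.52, adjusted p = 0.149), whereas DESeq2 called Acsl1 higher at both temperatures. Among 12 genes that use the products, Dgat2, which makes triglycerides, was the single one higher under the BATdKO label at 8°C and the single one past the threshold in the interaction (log2 0.81, adjusted p = 0.0715). None of the 14 genes of the transcriptional regulator list, Srebf1 and Mlxipl among them, passed the adjusted threshold in any of the 5 contrasts in edgeR's test, with 0 to 4 of the 14 at an unadjusted p under 0.05, and DESeq2 called 0 of 14.

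Of 5 other family members in the table, Scd4 was the single one called, with a log2 change of -0.86 with cold in BATdKO mice (edgeR adjusted p = 0.0546) from 4 to 33 counts per library over all groups. Scd3, a desaturase next to Scd2 that shared 3.44% of its end words with Scd1 and Scd2, exceeded its Cre- level in BATdKO mice at 30°C by 0.78 on the log2 scale (standard error 0.17) at an unadjusted p of 1.01e-04, with an adjusted p of 0.149. DESeq2 called Scd3 and Scd4 at 30°C, both higher under the BATdKO label, as it did Scd1.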

How the data were processed

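RNA of brown fat from 24 mice (6 per group) was sequenced with a 3′ tag kit. The deposited values are raw counts per gene, which the authors obtained from trimmed forward reads by STAR alignment to GRCm38 and Rsubread, and they used DESeq2 for their own tests. Annotation release, strand setting and any filter on genes are not given in the sources used here. The paper's analysis removed outliers that it does not name, so all libraries were kept. Per-sample columns that were not used numbered 0. No 2 libraries of a group were alike within sampling noise.

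The counts entered edgeR 4.0.16 (R 4.3.3, limma 3.58.1) with TMM library sizes, filterByExpr (12485 of 12615 genes kept) and a quasi-likelihood fit of all 24 libraries with a mean per group. Benjamini-Hochberg adjustment covered all tested genes, and 0.1 was the threshold, as in the study. Standard errors were derived from each log2 fold change and its F statistic. CPM and log2 CPM (prior count 2) use the normalized library sizes. Exact two-sided permutation tests compared mean log2 CPM in 36 sets (9 genes, 4 comparisons), of which 9 had p under 0.05 and 9 an adjusted value under 0.1. That adjustment covered these 36 tests alone, and the share over all tested genes was not computed for this test. Both count models were first tested on simulated data. Alternatives were DESeq2 1.42.0, RLE library sizes, no filter, a mean count of at least 10, robust dispersion, only the groups of a contrast, and leaving out each mouse. Leaving out both libraries numbered 6 at 30°C was added after seeing the data.

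Members, gene lists and marker lists were chosen with earlier results of these data known. Genes named are all members, both deleted genes, Ucp1, in each pathway list up to 4 called genes per contrast by smallest p, and the 2 genes nearest in profile to each called member. Albumin, the Mup family, Elovl2, Scd3, Srebf1 and Mlxipl were named after their values were seen. Gene symbols matched 12608 of 12615 identifiers. Positions are from GENCODE (GRCm38) and promoters from RefSeq (GRCm38.p6). Protein sequences were not used here.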

Additional observations from a re-analysis of the deposited data

Results flagged for a closer look

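In 36 sets of 6 log2 CPM values (9 genes in 4 groups), 2 had a library farther from its neighbours than Dixon's critical ratio for 6 values allows, and chance alone flags about 1 set in 20. Scd1 in the libraries labelled BATdKO at 8°C was lowest in replicate 6, at 7175 CPM, where the next lowest had 9328 CPM (ratio 0.808). The same library had the lowest Elovl6 (209.7 CPM) and the highest Elovl5 (390 CPM) of its group. Elovl5 in the libraries labelled BATdKO at 30°C was lowest in replicate 6, at 151 CPM, where the next lowest had 257 CPM (ratio 0.66). That library also had the lowest Scd1, Scd2 and brown adipocyte marker sum of its group.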

How the results depend on the processing

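Elovl6 and Elovl3 with cold under both labels and Fads3 with cold in Cre- mice kept their direction and stayed past the threshold under every alternative run. Among the members, no gene passed between genotypes at 8°C except with the groups of that contrast alone (3: Scd1, Scd2 and Elovl3). At 30°C, DESeq2 gave 1 (Scd1), leaving out each library gave 0 to 1 (Scd1, without Cre- replicate 6), and leaving out both libraries numbered 6 gave 2 (Scd1 and Scd2). For both genes, these were the highest Cre- and the lowest BATdKO library at 30°C. Leaving them out therefore had to raise the genotype differences at 30°C and the cold changes in Cre- mice of both genes. The cause of the changes in calls was not tested. Scd1 and Scd2 summed had log2 differences of 0.39 to 0.59 at 30°C when each library was left out (adjusted p = 0.017 without Cre- replicate 6), and -0.14 to 0.042 with cold in Cre- mice. Small differences changed sign when libraries were left out in turn: Elovl1 ran from -0.076 to 0.041 (genotype at 8°C), -0.16 to 0.0015 (cold in Cre-), -0.16 to 0.011 (genotype at 30°C), -0.10 to 0.062 (cold in BATdKO) and -0.039 to 0.14 (interaction). Elovl6 ran from -0.0098 to 0.20 (genotype at 8°C), -0.022 to 0.28 (genotype at 30°C) and -0.21 to 0.093 (interaction), Elovl3 from -0.082 to 0.038 (genotype at 30°C), and Fads2 from -0.074 to 0.013 (cold in Cre-) and -0.079 to 0.0020 (genotype at 30°C). Scd1 ran from -0.15 to 0.041 (cold in Cre-) and Scd2 from -0.59 to 0.20 (interaction). Without both libraries numbered 6 at 30°C, Scd2 rose with cold in Cre- mice by 1.00 (adjusted p = 0.0611), Scd1 was 0.034 (cold in Cre-) and Elovl1 0.063 (cold in BATdKO). Over all genes, calls at 8°C between genotypes went from 227 to 477 with only the groups of the contrast. At 30°C they went from 0 to 90 with DESeq2 and to 500 without both libraries numbered 6, and in the interaction from 12 to 51, 21 (robust dispersion) and 44. Leaving out each library gave 0 to 369 calls over all genes between genotypes at 30°C, 138 to 276 at 8°C, 791 to 1343 with cold in Cre- mice, 574 to 1069 with cold in BATdKO mice and 7 to 37 in the interaction. Depth limits Fads3 and Scd4 most, with as few as 8 and 4 counts in a library. No paired analysis was possible because mouse numbers are shared by no groups and replicate numbers only follow the order of the samples.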
